A study of Mus musculus with 18 samples.

Results

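Rab proteins are the small GTPases that mark the membranes of the secretory and endocytic pathways, and this account follows their mRNAs in a mouse macrophage-like cell line. The members were all genes whose symbol is Rab followed by 1 or 2 digits and at most 2 lower-case letters and which were listed in all 18 libraries. There were 40 of them among 10181 genes listed in every library and 14002 listed in any. Of these, 39 are GTPases, and the other one, Rab3ip (Rabin8), is an exchange factor that activates Rab GTPases and was kept because the rule takes it. Another 9 Rab symbols of the same form were listed in some libraries only, the most abundant being Rab39 with at most 43 reads and Rab15 with at most 31, and they were not analysed further.

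RAW264.7 cells were given 200 µM 4-thiouridine (4sU), a uridine analogue that is built into new RNA, and lysates were taken after increasing times. Each of the 9 lysates gave a pair of libraries, ribosome footprints (fragments that ribosomes protected from RNase I, taken from the monosome peak of a sucrose gradient) and input (alkali-fragmented cytoplasmic RNA of the same lysate). Experiment 1 had lysates at 0, 20, 40, 60, 90 and 120 min and experiment 2 at 20, 30 and 40 min, so that 8 lysates were labelled and 1 was not. All cells were of the same line with no other treatment named in the labels, and cycloheximide, which stops ribosomes on the mRNA, was used for all of them. Chemical conversion made 4sU read as C, so a read with a T-to-C change counts as coming from labelled RNA. The labels do not say that the lysates were separate cultures, so the tests below measure the spread between lysates, some of which may be technical.

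A Rab protein works as a switch: an exchange factor loads it with GTP, it then binds effectors such as tethers and motors on its membrane, and a GTPase-activating protein (GAP) turns it off. Lipid anchors are added with the help of escort proteins, and GDI proteins carry inactive Rabs between membranes. In macrophages, Rabs of early and late endosomes act one after the other as a phagosome matures into a degradative compartment.

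The libraries held 11771175 to 87536081 reads for footprints and 6230562 to 48139330 reads for input. Rab genes took 0.235% to 0.280% of footprint reads and 0.178% to 0.190% of input reads, and the ranges did not overlap. The 9 macrophage marker symbols stand for 8 genes, as Emr1 and Adgre1 are the same gene, and all 8 were abundant enough to test. Of 16 markers of other cell types only Cd79b was, and its ratio of footprints to input was not called. The footprint library of the 60 min lysate was the smallest of the footprint libraries, and its reads held the most T positions, 6.87 on average. The other footprint libraries held 6.42 to 6.56 in experiment 1 and 6.29 to 6.71 in experiment 2. Its Rab share (0.235%) was the lowest in footprints, with the 40 min footprint library of experiment 2 close to it at 0.236%.

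Because Rab genes are close relatives and several have processed pseudogenes, the sequences themselves limit how reads of about 30 bases can be assigned. In the GENCODE M21 transcripts (GRCm38, the mm10 build), 95.2% of the windows of 30 bases in the Rab11b coding sequence occur also in the pseudogene Rab11b-ps2. The same was found for 92.6% of the windows of Rab4b with the gene model Gm21983, 80.5% of Rab5b with the pseudogene Gm13991, 67.4% of Rab43 with the gene model Gm45140 and 64.7% of Rab7 with the pseudogene Rab7-ps1. Smaller shares recurred in pseudogenes for Rab8b (42.2%), Rab2a (38.7%), Rab9 (37.8%) and Rab6a (20.2%), and 23.2% of the Rab5a windows occur in other transcripts. The sources used here do not say how reads that match several genes were counted. The counts of Rab11b, Rab4b, Rab5b, Rab43 and Rab7 are therefore the least certain of the set, and the limit holds in part for the genes with smaller shares. For Rab11a, 12.6% of the windows occur in the overlapping miRNA gene model Gm47308. Rab2b, Rab3a, Rab5a, Rab6a and Rab24 overlap a protein-coding gene on the other strand (Tox4, Mpv17l2, Pp2d1, Mrpl48 and Prelid1), and whether counting used strand is not stated. Rab4a overlaps the protein-coding gene model Gm20388 on its own strand, where strand cannot tell reads apart, but no coding window of Rab4a recurs in it. Between members, by contrast, sharing was slight: 9 windows between Rab1a and Rab1b, 6 between Rab1a and Rab10, and 6 between Rab5a and Rab5b. The longest stretches that the Rab1 and Rab5 pairs have in common are given here, since a read that falls inside the capitals cannot tell the partners apart, whereas a read that reaches into the lower-case flanks can. The strand shown is that of the mRNA, and the Rab1a gene lies at chr11:20201432-20226856, Rab1b at chr19:5099205-5107072, Rab5a at chr17:53479234-53507680 and Rab5b at chr10:128677175-128696264.
Rab1a: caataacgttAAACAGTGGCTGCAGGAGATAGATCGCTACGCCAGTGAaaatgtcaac
Rab1b: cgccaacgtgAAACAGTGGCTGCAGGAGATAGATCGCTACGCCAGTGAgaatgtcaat
Rab5a: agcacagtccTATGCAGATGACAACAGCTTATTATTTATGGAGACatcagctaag
Rab5b: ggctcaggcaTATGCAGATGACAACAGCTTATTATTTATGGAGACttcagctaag
The run in capitals is 38 bases in the Rab1 pair and 35 bases in the Rab5 pair.

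Levels are given as CPM, counts scaled to library size with TMM factors, per kb of coding sequence. Coding length was used because the number of T positions per read followed the T content of the coding sequence across genes (Pearson's r = 0.912 over 5127 genes in footprints and 0.937 over 4929 genes in input) more closely than that of the whole transcript (0.576 and 0.573). In footprints the highest level was that of Rab1a, which directs vesicles between the endoplasmic reticulum (ER) and the Golgi, at 507 ± 102 CPM per kb, followed by the late endosomal Rab7 at 502 ± 46.4 (SD, n = 9 each). These levels overlapped, so their order is not fixed by the spread. Next in footprints came Rab1b (345 ± 47.1), Rab14 (331 ± 55.2) and Rab5c (327 ± 42.1), again within each other's spread. In input the order was another one: Rab1b led with 281 ± 59.1 CPM per kb, before the endosomal Rab31 at 236 ± 56.5, Rab10 at 219 ± 14.4 and the early endosomal Rab5c at 202 ± 21.2 (SD, n = 9 each). Rab1a, at 134 ± 28.3 CPM per kb, was the seventh and Rab7, at 88.8 ± 30.8, lay below it. The lowest member in both materials was Rab43, a Rab of the ER and Golgi, with 1.08 ± 0.327 CPM per kb in footprints and 1.48 ± 0.281 in input.

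**Figure D1:**
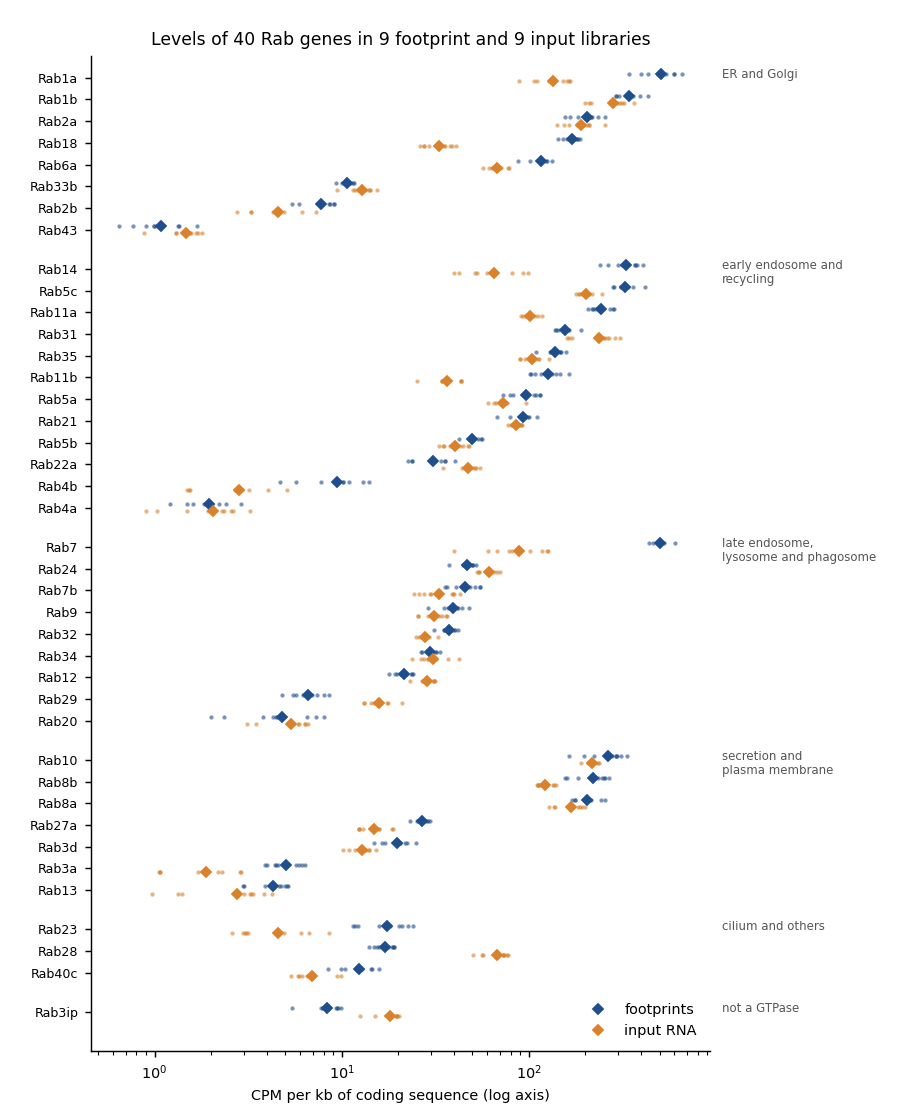
Level of each of the 40 Rab genes (rows, grouped by the compartment its protein is known for) in CPM per kb of coding sequence on a log axis. Small points are single libraries and diamonds the means of 9 footprint (blue) and 9 input (orange) libraries; Rab1a (507 against 134), Rab7 (502 against 88.8) and Rab14 (331 against 65.0) lie far to the right in footprints, while Rab28 (17.1 against 67.9) lies to the left.

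Ribosome density, the ratio of footprints to input, answers how heavily an mRNA is engaged by ribosomes. It differed widely between Rab genes. In a quasi-likelihood fit (edgeR) over 10592 genes, 26 of the 40 Rab genes were higher in footprints than in input and 8 were lower at an adjusted p under 0.05, while over all genes 35.3% were called higher and 40.3% lower. The median log2 ratio was 0.41 for the Rab genes and -0.04 for all genes tested. Within experiment 1 alone 25 Rab genes were called higher and 10 lower, and within experiment 2 alone 25 and 4.

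The highest ratio belonged to Rab7, the GTPase that brings late endosomes and phagosomes to lysosomes. Its footprint level was 273, 305 and 376 CPM (lowest, median and highest of 9 libraries), against 24.8, 50.2 and 79.0 CPM in input. Every footprint library lay above every input library, and the log2 ratio was 2.51 (SE 0.18, edgeR adjusted p = 5.36e-09), between 1.95 and 3.60 in single lysates. As given above, 64.7% of the coding windows of Rab7 recur in its pseudogene, and whether that enters the ratio was not tested.

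Rab14, which works between the Golgi and early endosomes and on phagosomes, had 155, 218 and 262 CPM in footprints, against 25.8, 38.6 and 64.2 CPM in input. The groups did not overlap (log2 ratio 2.37, SE 0.14, edgeR adjusted p = 7.04e-10). Rab18, a Rab of the ER and of lipid droplets, had 91.2, 109 and 119 CPM in footprints, against 16.6, 22.5 and 26.1 CPM in input, and here too the groups lay apart (log2 ratio 2.34, SE 0.10, edgeR adjusted p = 2.04e-11). Neither gene shares any 30-base coding window with another annotated transcript. Rab1a had 212, 311 and 404 CPM in footprints, against 54.3, 80.3 and 102 CPM in input, with no overlap (log2 ratio 1.90, SE 0.13, edgeR adjusted p = 3.4e-09). In all 4 genes the footprints exceeded the input in each of the 9 lysates. For each of Rab7, Rab14, Rab18 and Rab1a the ratio averaged higher in experiment 1 than in experiment 2. In that order, the experiment 2 means were 2.08 ± 0.22, 1.95 ± 0.25, 2.11 ± 0.11 and 1.57 ± 0.36 (SD, n = 3). The experiment 1 means were 2.83 ± 0.47, 2.63 ± 0.41, 2.49 ± 0.35 and 2.10 ± 0.42 (SD, n = 6).

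Below these came Rab23, which restrains Hedgehog signalling at the cilium (1.85), Rab11b of recycling endosomes (1.77), Rab4b of fast recycling (1.68), Rab3a of regulated exocytosis (1.34) and Rab11a (1.25). Rab4b and Rab3a rest on few reads, with input levels of at most 3.27 and 1.91 CPM. With experiment 2 alone the value for Rab4b was 1.01.

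At the other end stood Rab28, a GTPase of cilia, with 9.26, 11.7 and 12.7 CPM in footprints, against 33.5, 48.6 and 51.4 CPM in input. Its footprint libraries all lay below its input libraries (log2 ratio -1.98, SE 0.10, edgeR adjusted p = 1.01e-10). Rab29, a partner of the kinase Lrrk2 at the Golgi and lysosomes, had 2.93, 4.02 and 5.24 CPM in footprints, against 8.04, 9.19 and 12.9 CPM in input, again without overlap (log2 ratio -1.23, SE 0.13, edgeR adjusted p = 3.07e-07). The exchange factor gene Rab3ip had 7.47, 11.4 and 13.7 CPM in footprints, against 17.3, 26.9 and 28.0 CPM in input (log2 ratio -1.10, SE 0.07, edgeR adjusted p = 8.56e-10), and its groups were separate as well. Rab22a, which sorts cargo on early endosomes, had 13.2, 18.3 and 23.6 CPM in footprints, against 20.2, 27.4 and 31.9 CPM in input. The ranges overlapped, but footprints were below input in each of the 9 lysates (log2 ratio -0.62, SE 0.09, edgeR adjusted p = 1.44e-05).

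**Figure D2:**
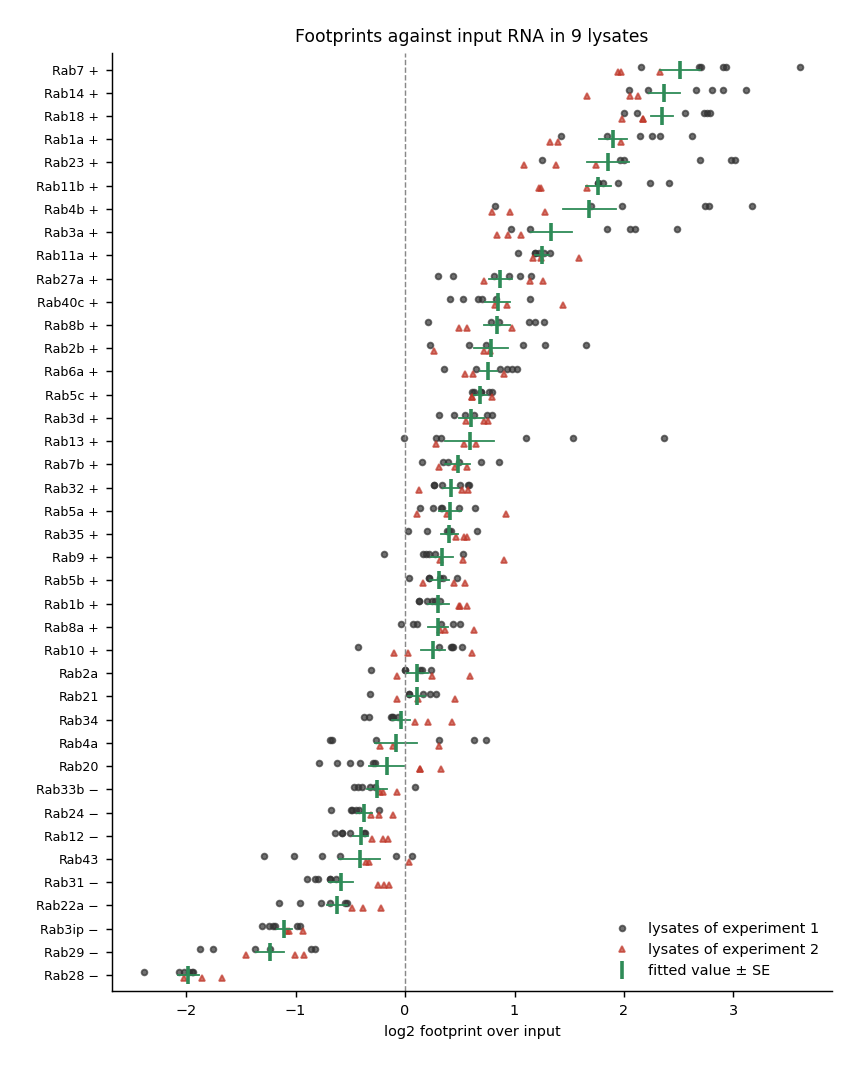
Log2 ratio of footprint to input CPM for each Rab gene (rows, from the highest to the lowest fitted value), with single lysates of experiment 1 (grey circles) and experiment 2 (red triangles) and the fitted value ± SE in green; + and − mark genes called higher or lower in footprints. The order runs from Rab7 (2.51) to Rab28 (-1.98), and all lysates of the top 12 genes lie right of 0.

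Among the 4 members most abundant in input, the ratio ran from clearly positive to clearly negative. Rab5c, which drives fusion of early endosomes, had 198, 221 and 294 CPM in footprints, against 125, 137 and 173 CPM in input, and its log2 ratio of 0.69 (SE 0.06, edgeR adjusted p = 4.25e-08) kept within 0.61 to 0.80 over the lysates. Rab1b had 177, 203 and 262 CPM in footprints, against 120, 180 and 221 CPM in input. The groups overlapped, and the ratio was 0.30 (SE 0.09, edgeR adjusted p = 0.00837). Rab10, which carries vesicles to the plasma membrane, had 98.6, 175 and 201 CPM in footprints, against 115, 132 and 143 CPM in input. Its ratio of 0.26 (SE 0.11, edgeR adjusted p = 0.0409) was below 0 in the 60 min lysate of experiment 1 and in the 40 min lysate of experiment 2, and the call was lost without the 0, 20, 40 or 90 min lysate of experiment 1 or the 30 min lysate of experiment 2, at adjusted p of 0.056 to 0.103. Rab31, a Rab5 relative that links the trans-Golgi and endosomes, had 80.6, 90.1 and 112 CPM in footprints, against 93.9, 148 and 180 CPM in input, and a ratio of -0.58 (SE 0.11, edgeR adjusted p = 0.000196). All 9 lysates were below 0, but the experiment 2 mean was -0.20 ± 0.05 (SD, n = 3), against -0.75 ± 0.10 (SD, n = 6) in experiment 1, and with experiment 2 alone the adjusted p was 0.070.

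By compartment, the lists are small, and the shares over all genes to set beside them were 35.3% higher and 40.3% lower. All 7 Rabs of secretion and the plasma membrane were higher in footprints (Rab3a, Rab3d, Rab8a, Rab8b, Rab10, Rab13 and Rab27a), with a median log2 ratio of 0.61. Of the 12 Rabs of early and recycling endosomes 8 were higher and 2, Rab22a and Rab31, were lower (median 0.41). Of the 8 ER and Golgi Rabs 5 were higher and 1, Rab33b, was lower (median 0.53). Of the 9 late endosomal, lysosomal and phagosomal Rabs 4 were higher (Rab7, Rab7b, Rab9 and Rab32) and 3 were lower (Rab12, Rab24 and Rab29), with a median of -0.04. Rab29 was put into this list after the data were seen, and without it 4 of 8 were higher, 2 were lower and the median was 0.15. Of the 3 Rabs of cilia and other sites, Rab23 and Rab40c were higher and Rab28 lower. The 6 Rab genes with no call were Rab2a, Rab4a, Rab20, Rab21, Rab34 and Rab43, with log2 ratios of -0.42 to 0.11. Single lysates decided a few of these calls: that of Rab13 (0.59) was lost without the 60 min lysate of experiment 1 or the 30 min lysate of experiment 2 (edgeR adjusted p = 0.053 and 0.051) and that of Rab33b (-0.26) without the 120 min lysate (0.069), while Rab43 was called lower without the 30 min lysate of experiment 2 (0.044). Within experiment 1 alone Rab9 was no longer called (edgeR adjusted p = 0.090), and within experiment 2 alone Rab12, Rab24 and Rab33b were not (0.071, 0.064 and 0.214). Rab20 and Rab34, both known from phagosomes, were below 0 in every lysate of experiment 1 and above 0 in every lysate of experiment 2.

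The coding starts of the Rab mRNAs show how members with different ratios begin. Each line runs from 12 bases before the start codon to 9 bases after it, from the GENCODE M21 transcripts, and the capitals mark the base at -3, the ATG and the base at +4, which together are known to affect how well a start codon is recognised.
Rab7: tgcgcttcaAggATGAcctctagg
Rab14: cccagtgccAccATGGcaactgca
Rab1a: agctgcagtGacATGTccagcatg
Rab1b: accgctgccGccATGAaccccgaa
Rab29: ccaccactaGccATGGgcagccga
Rab28: tcctcggacAccATGTcagactct
Both the gene with the highest ratio, Rab7, and the lowest, Rab28, have A at -3 and no G at +4. Over the set, 35 of 40 genes have A or G at -3 (87.5%, against 86.33% of 9729 genes) and 24 have G at +4 (60.0%, against 53.44%). An ATG upstream of the start, searched as the letters ATG on the mRNA strand of the 5′ UTR, was found in 14 of the 40 Rab mRNAs (35.0%, against 50.57% of all). It was found in 8 of the 26 Rab genes called higher in footprints and in 5 of the 8 called lower, Rab3ip among the latter. The split by call was not counted over all genes, so a link with the ratio was not tested. These counts are descriptions of one transcript per gene.

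Paralogues, here related Rab genes that share a number, often had different ratios. In a comparison within lysates of 10 pairs, chosen after the values were seen and tested by two-sided exact sign-flip tests (n = 9 lysates, smallest possible p = 0.0039), 9 pairs differed after adjustment over the 10. Ratios differ widely between genes in general, with quartiles of -0.74 and 0.48 over all genes tested. Pairs of other genes were not compared, so the count does not set Rab paralogues apart. The log2 ratio of Rab1a averaged 1.92 ± 0.46 and that of Rab1b 0.31 ± 0.17 (SD), a difference of 1.61 that was positive in 9 of 9 lysates (exact p = 0.0039, adjusted 0.0056). Rab7 averaged 2.58 ± 0.54 and Rab7b, which returns cargo from late endosomes to the trans-Golgi, 0.47 ± 0.21, a difference of 2.11 that was again positive in all 9 (exact p = 0.0039, adjusted 0.0056). Rab4b exceeded Rab4a by 1.80 and Rab3a exceeded Rab3d by 0.88, both in 9 of 9 lysates, although Rab4a, Rab4b and Rab3a are scarce. Rab8b exceeded Rab8a by 0.53 and Rab5c exceeded Rab5b by 0.38, both in 9 of 9 lysates, and Rab2a was below Rab2b by 0.70 in 9 of 9. The difference of 0.54 between Rab11b and Rab11a was positive in 8 of 9 lysates (exact p = 0.0117, adjusted 0.0146), and Rab5a was below Rab5c by 0.29 in 8 of 9 (exact p = 0.0273, adjusted 0.0304). For Rab5a and Rab5b no difference could be shown: it was 0.09 on average, from -0.35 to 0.60 in single lysates (exact p = 0.391, adjusted 0.391). Of the genes in these pairs, Rab2a, Rab4b, Rab5a, Rab5b, Rab7, Rab8b and Rab11b share many coding windows with pseudogenes or gene models, and Rab11a shares fewer, as given above. Whether that enters the differences was not tested.

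For the genes that act on Rabs the list medians lay below the -0.04 of all genes, by only a little for the GDI list, and the shares called over all genes were 35.3% higher and 40.3% lower as above. Of 31 GAP genes tested, 6 were higher in footprints and 24 lower (median log2 ratio -0.63), with Tbc1d15, a GAP for Rab7, at 1.99 and Tbc1d20, a GAP for Rab1, at -2.42. Of 43 exchange factors and TRAPP subunits, 11 were higher and 24 lower (median -0.38). The extremes were Trappc1 at 1.24 and Dennd5a at -3.32, with Trappc10 at -2.24 and Sbf1 at -2.22. Of 44 effectors, 6 were higher and 28 lower (median -0.49), among them the ER to Golgi tether Uso1 at 1.20 and the Rab5 effector Rabep1 at -2.22, the motor Myo5a at -1.57 and the kinase Lrrk2 at -1.49. Of 10 GDI, escort and prenylation genes, 4 were higher and 4 lower (median -0.07), with Pde6d at 1.19 and Chml at -1.99. These lists also differ from the Rab genes in coding length, with medians of 2427 bases for GAPs, 2322 for exchange factors and 2798 for effectors, against 645 for the Rab genes and 1395 for all genes. Across 10085 genes the log2 ratio and the log2 coding length had a Pearson's r of -0.309, and across the 40 Rab genes -0.216. These correlations run across genes, which are not independent replicates, and the part of length in the list medians was not tested.

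How fast a gene's mRNA gains label reflects how much of it is new. The share of Rab reads with a conversion in experiment 1 was 0.248, 0.377, 1.28, 2.74, 4.86 and 7.41% in footprints at 0, 20, 40, 60, 90 and 120 min, and 0.220, 0.647, 1.81, 3.74, 5.24 and 9.16% in input. In experiment 2 it was 0.230, 0.448 and 0.819% in footprints at 20, 30 and 40 min, and 0.521, 1.25 and 1.64% in input. In all libraries but 1 of the labelled times the Rab footprints were above the unlabelled footprints. The exception was the 20 min footprint library of experiment 2, at 0.230% (95% Wilson interval 0.207% to 0.256%).

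To compare genes, the log2 odds of conversion in input were taken relative to the median gene of the same library. Limma tested 7045 genes, among them the 27 Rab genes that reached the minimum of reads and of converted reads. Of these 27, 9 were called above the library median and 9 below it. Over all genes tested, 35.2% were called higher and 35.2% lower. The minimum of converted reads rests on the measured quantity, so a gene with few reads entered only if it was well labelled. Rab33b and Rab40c entered with mean input levels of 8.83 and 5.87 CPM, while Rab24 and Rab34, at 37.2 and 24.1 CPM, did not. The counts and the leading genes therefore hold for the tested genes only. Rab33b, a Golgi Rab that also binds the autophagy protein Atg16l1, stood highest at 3.28 (SE 0.21, limma adjusted p = 7.32e-08), and its relative labelling was 2.31, 3.25 and 4.33 (lowest, median and highest of 8 lysates). Its converted share in experiment 1 was 1.45, 14.7, 33.3, 31.6 and 51.7% of footprint reads at 20, 40, 60, 90 and 120 min, and 8.57, 13.04, 32.5, 37.3 and 70.0% of input reads. The input share at 120 min came from 60 reads and has a Wilson interval of 57.5% to 80.1%. Each labelled lysate placed Rab33b above the library median.

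Rab40c, which joins a ubiquitin ligase through its SOCS box, followed at 2.33 (SE 0.29, limma adjusted p = 2.18e-05), with a relative labelling of 1.01, 2.25 and 3.80 over the lysates. Its converted share reached 42.9% of footprint reads (Wilson interval 34.6% to 51.6%) and 50.0% of input reads (33.6% to 66.4%) at 120 min. Rab9, which returns mannose 6-phosphate receptors to the trans-Golgi, was at 2.00 (SE 0.22, limma adjusted p = 7.97e-06), with 0.49, 2.13 and 2.88 over the lysates. Its shares at 120 min were 33.1% of footprint reads and 45.5% of input reads. As given above, 37.8% of the Rab9 coding windows recur in a pseudogene, and whether that enters its label was not tested. Rab7b was at 1.51 (SE 0.21, limma adjusted p = 4.56e-05), with 0.29, 1.73 and 2.10 over the lysates and shares of 26.9% of footprint reads and 26.7% of input reads at 120 min. All 8 labelled lysates were above 0 for each of these genes. The remaining 5 higher calls were Rab12 (0.92), Rab5a (0.83), Rab22a (0.69), Rab35 (0.68) and Rab1a (0.42), and that of Rab1a was lost without the 40 or 60 min lysate of experiment 1 or the 40 min lysate of experiment 2 (limma adjusted p of 0.054 to 0.059).

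**Figure D3:**
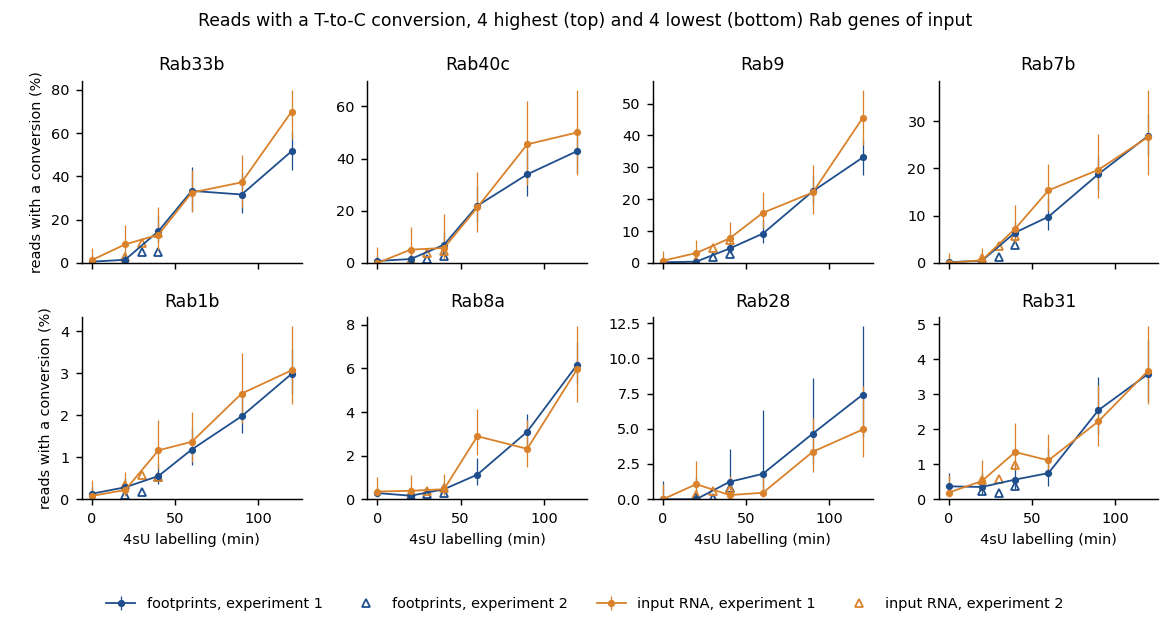
Share of reads with a T-to-C conversion (percent, own scale in each panel) against minutes of 4sU. Of the 27 Rab genes tested, the 4 with the highest (top row) and the 4 with the lowest (bottom row) relative labelling of input are shown. Blue is footprints and orange input; lines join the single lysates of experiment 1 with 95% Wilson intervals, and open triangles are experiment 2. At 120 min Rab33b reached 51.7% and 70.0%, and Rab1b 2.98% and 3.07%.

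The least labelled of the tested Rab mRNAs was Rab1b, at -1.33 (SE 0.17, limma adjusted p = 2.14e-05), with -1.83, -1.38 and -0.71 over the lysates. Its converted share in experiment 1 was 0.283, 0.551, 1.18, 1.97 and 2.98% of footprint reads at 20, 40, 60, 90 and 120 min, and 0.218, 1.16, 1.37, 2.51 and 3.07% of input reads. Rab8a, which serves exocytosis and the cilium, was at -1.22 (SE 0.21, limma adjusted p = 0.000232), with -2.06, -1.07 and -0.50 over the lysates. It reached 6.17% of footprint reads and 5.97% of input reads at 120 min, and its input share of 0.458% at 40 min was still close to the 0.353% of the unlabelled lysate. Rab1b and Rab8a were below the median in every labelled lysate. Rab28 was at -1.19 (SE 0.32, limma adjusted p = 0.00514), with -2.91, -1.13 and 0.76 over the lysates, so it was above the median in 1 of 8. Rab31 was at -0.98 (SE 0.22, limma adjusted p = 0.00146), with -1.89, -1.05 and 0.03. The other 5 lower calls were Rab2a (-0.87), Rab5c (-0.84), Rab21 (-0.83), Rab11a (-0.73) and Rab7 (-0.51). That of Rab7 was lost without the 40, 60, 90 or 120 min lysate of experiment 1 or the 30 or 40 min lysate of experiment 2, at limma adjusted p of 0.051 to 0.115.

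None of the 4 Rab mRNAs most abundant in input was called higher in label: Rab1b, Rab31 and Rab5c were called lower and Rab10, at -0.19, was not called. Rab genes with too few reads or too little label did not reach the minimum of converted reads. The tested genes therefore cannot show how label goes with level over the whole set. With the unlabelled share subtracted from each gene, 11 Rab genes were called higher and 8 lower. Over all genes 49.3% of the calls were higher under this setting.

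**Figure D4:**
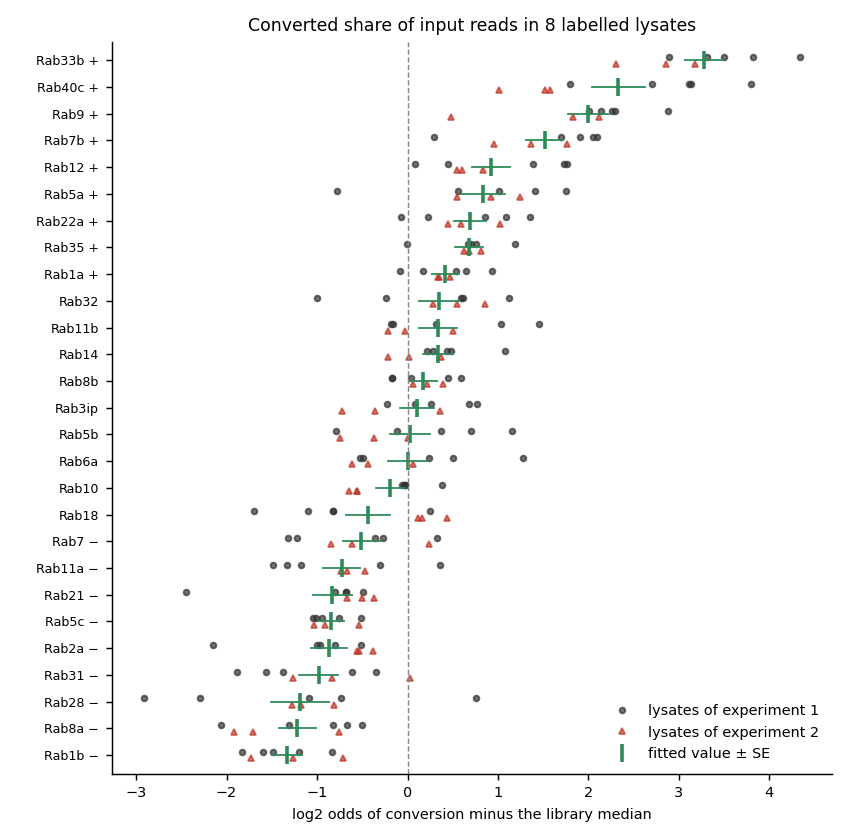
Log2 odds of conversion of input reads minus the library median for the 27 Rab genes tested (rows, highest to lowest), with lysates of experiment 1 (grey circles) and experiment 2 (red triangles) and the fitted value ± SE in green; + and − mark called genes. Rab33b (3.28), Rab40c (2.33), Rab9 (2.00) and Rab7b (1.51) lie right of 0 in all 8 lysates, and Rab1b (-1.33), Rab8a (-1.22), Rab21 (-0.83), Rab5c (-0.84) and Rab2a (-0.87) lie left of it in all 8.

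The paralogues also parted by label. In 7 pairs both genes passed the minimum of reads and converted reads. Tested as above over 8 labelled lysates (smallest possible exact p = 0.0078), all 7 differed after adjustment over the 7. Relative labelling differs widely between genes in general, with quartiles of -0.74 and 0.96 over all genes tested. Pairs of other genes were not compared here either, so the count does not set Rab paralogues apart. Relative labelling averaged 0.42 ± 0.30 for Rab1a and -1.33 ± 0.41 for Rab1b (SD), a difference of 1.75 seen in 8 of 8 lysates (exact p = 0.0078, adjusted 0.0137). Rab5a was above Rab5c by 1.68, Rab8b above Rab8a by 1.39 and Rab11b above Rab11a by 1.06, each in 8 of 8 lysates. Rab5a was above Rab5b by 0.81 in 7 of 8 (exact p = 0.0312, adjusted 0.0312), and Rab5c was below Rab5b by 0.87 in 7 of 8. Rab7 was below Rab7b by 2.03 in 7 of 8 lysates (exact p = 0.0156, adjusted 0.0182). So Rab1a had both the higher ribosome density and the higher label of its pair, whereas Rab7 had the higher density and the lower label. The pairs were not compared per T position, and their coding sequences differ in T content. It was 24.2% for Rab1a and 20.4% for Rab1b, and in all but the Rab11 pair the more labelled gene had the higher content. Rab11b had 19.9% and Rab11a 25.9%. Whether T content or the windows shared with other transcripts enter these differences was not tested.

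Among the regulators, exchange factors and TRAPP subunits had 10 genes called higher and 10 called lower of 32 tested (median -0.11), near the 35.2% called each way over all genes, with Mon1b (2.27), a subunit of the exchange factor for Rab7, and Rin2 (2.10) and Rabgef1 (2.08), both exchange factors for Rab5, at the top. GAPs had 6 called higher and 7 called lower of 19, from Sgsm1 at 1.52 to Sgsm3 at -2.08. Effectors had 6 called higher and 11 called lower of 28, from Pik3r4 at 2.12 to Vps41 at -1.82. Of the 6 GDI, escort and prenylation genes tested, Rabggtb, the catalytic subunit of the Rab prenyl transferase, was at 2.57, Chml at 1.07 and Gdi2 at -0.90. The median over all genes was -0.03.

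Whether new Rab mRNA was on ribosomes to the same extent as in the cytoplasm was read from conversion in footprints against input. In edgeR's fit of converted and unconverted reads over 8276 genes, 18 of 33 Rab genes tested had lower odds of conversion in footprints and 0 had higher odds, while 59.4% of all genes were called lower and 0.145% higher. At an unadjusted p under 0.05 there were 23 Rab genes. The median log2 difference was -0.71 for the Rab genes and -0.79 for all genes. With experiment 1 alone 3 Rab genes were called lower, and without the 30 min lysate of experiment 2 11 were.

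The decrease was -1.46 for both Rab24 and Rab18. For Rab24, a Rab linked to autophagy, it had a wide error (SE 0.45, edgeR adjusted p = 0.00409). Its converted share in experiment 1 was 0.458, 0.180, 0.328, 0.652 and 1.88% of footprint reads at 20, 40, 60, 90 and 120 min, and 0.369, 1.06, 1.23, 2.31 and 3.41% of input reads. The footprint share was lower from 40 min on and higher at 20 min. For Rab18 the error was smaller (SE 0.35, edgeR adjusted p = 0.000184). In experiment 2 its share was 0.234, 0.313 and 0.541% of footprint reads at 20, 30 and 40 min, and 0.588, 1.47 and 2.33% of input reads. In the unlabelled lysate, 0.248% of the footprint reads and 0.220% of the input reads of all Rab genes together had a conversion. The footprint shares of Rab18 at 20 and 30 min and of Rab24 at 40 and 60 min lay near that background. Rab3a (-1.20, SE 0.53, edgeR adjusted p = 0.0413) and Rab23 (-1.12, SE 0.47, edgeR adjusted p = 0.0317) followed. At 30 min in experiment 2 the converted share of Rab3a was 4.59% of 218 footprint reads and 14.04% of 57 input reads, and that of Rab23 was 0.301% of 1327 footprint reads and 3.70% of 216 input reads. The footprint share of Rab23 lay near the unlabelled share as well. Rab3a and Rab23 rest on few input reads, and each call was lost when any of 4 lysates was left out. For Rab3a these were the 60, 90 and 120 min lysates of experiment 1 and the 20 min lysate of experiment 2, with adjusted p of 0.058 to 0.100. For Rab23 they were the 20 and 40 min lysates of experiment 1 and the 20 and 30 min lysates of experiment 2, with adjusted p of 0.053 to 0.297. The smallest called decreases were those of Rab1b (-0.60), Rab1a (-0.70), Rab6a (-0.71) and Rab31 (-0.76), and those of Rab1b and Rab6a were lost without the 30 min lysate of experiment 2 (edgeR adjusted p = 0.144 and 0.150). That of Rab1b was also lost without the 40 min lysate of experiment 1 or the 20 min lysate of experiment 2 (0.074 and 0.103), and that of Rab6a without the 20, 40 or 60 min lysate of experiment 1 or the 40 min lysate of experiment 2 (0.052 to 0.064). For Rab1a the converted share was 0.556, 1.88, 3.60, 5.69 and 8.16% of footprint reads in experiment 1, and 1.24, 3.13, 5.79, 6.30 and 9.66% of input reads.

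Set against the median gene of each library, no Rab gene was called. In limma over the same 8276 genes 0.894% were called, and none of the 33 Rab genes was. Only 4 Rab genes, Rab5a, Rab27a, Rab28 and Rab32, had an unadjusted p under 0.05. The median was 0.07 for the Rab genes and 0.07 for all genes. With a pseudocount of 2 in place of 0.5, Rab28 was called higher (1.34, limma adjusted p = 0.006) and Rab18 lower (-0.85, adjusted p = 0.016).

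The time course of experiment 1 also allows a trend of levels with hours of 4sU. In input, 0 of 39 Rab genes tested changed with time in edgeR's fit, while 0.524% of all genes were called rising and 5.16% falling, and 10 Rab genes had an unadjusted p under 0.05. In DESeq2's Wald test 0 Rab genes were called as well. In footprints 5 of 40 Rab genes rose and 2 fell, against 10.8% and 14.6% of all genes. The rising ones were Rab11b (0.23 on the log2 scale per hour, SE 0.05, edgeR adjusted p = 0.0158), Rab7 (0.22), Rab5c (0.20), Rab1b (0.19) and Rab31 (0.18). Rab7 footprints stood at 273, 288, 301, 314, 326 and 376 CPM at 0, 20, 40, 60, 90 and 120 min, with the 120 min library the highest. Rab11b footprints stood at 76.4, 81.7, 87.4, 91.1, 95.6 and 107 CPM, and input at 22.5, 23.3, 16.4, 23.7, 28.2 and 22.6 CPM.

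Falling were Rab20 (-0.61 per hour, edgeR adjusted p = 0.0205) and Rab23 (-0.55 per hour, edgeR adjusted p = 0.0187). Rab20 footprints stood at 3.13, 3.14, 3.003, 2.66, 1.64 and 1.40 CPM, and input at 3.77, 4.46, 3.68, 4.10, 2.18 and 2.42 CPM, so the 90 and 120 min libraries were the lowest in both materials. Rab23 footprints stood at 14.5, 17.02, 14.9, 8.35, 8.75 and 8.21 CPM, and input at 2.24, 2.17, 1.84, 3.51, 2.18 and 2.10 CPM, so in footprints the times up to 40 min lay above those from 60 min on. These footprint trends depended on single libraries. Leaving out the 20, 90 or 120 min lysate left 0 Rab genes in either direction, leaving out the 0 min lysate left 0 rising and 2 falling, and leaving out the 60 min lysate gave 9 rising and 9 falling. With DESeq2 size factors the share of rising calls among all genes called was 32.1%, against 42.4% with TMM, and 3 Rab genes were called rising. The ratio of footprints to input changed with time for 0 of 40 Rab genes in edgeR's fit, with 0 at an unadjusted p under 0.05 and 0 in DESeq2's Wald test, against 0.0298% of all genes.

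**Figure D5:**
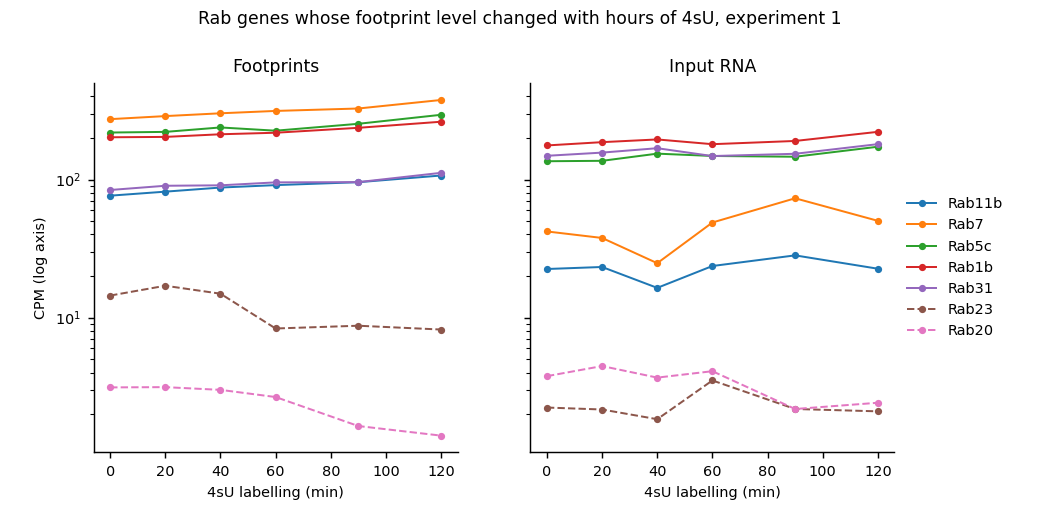
CPM (log axis) against minutes of 4sU in experiment 1 for the 7 Rab genes whose footprint level changed with time, in footprints (left) and input (right); 1 library per point, solid lines for rising and dashed for falling genes. Rab7 footprints stood at 273 CPM without label and 376 CPM at 120 min, and Rab20 footprints at 3.13 and 1.40 CPM.

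Among the regulators in footprints, exchange factors and TRAPP subunits had 3 rising and 10 falling of 43 genes, with Trappc2l (0.28 per hour) and Rin2 (-0.67 per hour) at the ends. GAPs had 0 rising and 4 falling of 30 (down to Tbc1d2b at -0.72 per hour), and effectors 1 rising, Vps41 (0.29 per hour), and 8 falling of 41 (down to Wdr44 at -0.63 per hour). None of the 10 GDI, escort and prenylation genes was called. Over all genes 10.8% were called rising and 14.6% falling, and these counts moved with single lysates, from 8 to 1911 rising and 115 to 2688 falling genes when 1 was left out. The regulator calls were not recounted without each lysate.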

How the data were processed

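The values are the authors' deposited counts of reads per gene, split by T positions and T-to-C conversions per read; the aligner was Bowtie 0.12.8 and the build mm10, per the submitters' processing notes. The counting program, and what it does with reads that match several places, were not stated in the sources used here. Reads were summed per gene and library, and a read with any conversion was counted as converted. Depth per library is given above, and intervals of shares are 95% Wilson intervals that cover counting error only. Footprints were compared with input in R 4.3.3 by edgeR 4.0.16 quasi-likelihood fits (TMM, filterByExpr, time as a factor, all 18 libraries), and trends by hours of 4sU in experiment 1. Conversion used edgeR's design for methylation counts. Relative conversion was the log2 odds (pseudocount 0.5) minus the library median, tested by limma 3.58.1. Both conversion tests needed 50 reads per library on average and 50 converted reads in total. Tests were two-sided with Benjamini-Hochberg adjustment over all genes, called under 0.05. The fits were also run on simulated data, in which every gene had the same setting for its spread and the experiments did not differ. The outcome is not reported here, so it is no support for the calls.

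The members, gene lists and tests were chosen with earlier results of these data known, Rab29 was put into its compartment list after the files were seen, and so were the paralogue pairs. Genes are named by a rule: every Rab gene may be named, with full values for up to 4 called genes at each end of a comparison and the 4 most abundant in input, and up to 3 genes at each end of a regulator list. A value that this rule would name is not reported here. The letters after the digits were read as 0 to 2. Footprints and input of a number pair by lysate, since the protocol in the labels takes both from it; after removal of the material means the correlation of their profiles was 0.115 to 0.732, and the own partner was the closest one for 4 of 9 lysates. Alternatives were DESeq2 1.42.0 size factors and its Wald test, no low-count filter, lysate or experiment as a replicate block, single experiments, lysates left out in turn, a pseudocount of 2, a mean of 200 reads, conversions per T position and subtraction of the unlabelled share. The 4sU spike-in was not used here.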

Additional observations from a re-analysis of the deposited data

Results flagged for a closer look

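In 67 groups tested for a lone sample far from the others (40 by ratio, 27 by labelling), 4 were marked, and chance marks about 1 in 20. All 4 concern the relative labelling of input. For Rab21 and Rab2a the 20 min lysate of experiment 1 was lowest, at -2.45 against -0.80 to -0.37 in the others, and at -2.15 against -1.0001 to -0.39. For Rab35 the 40 min lysate of experiment 1 was lowest, at -0.0029 against 0.62 to 1.19 in the others. For Rab9 the 20 min lysate of experiment 2 was lowest, at 0.49 against 1.83 to 2.88 in the others. The ratio of footprints to input was opposite in sign between the experiments in every lysate for Rab20, with a mean of 0.20 in experiment 2 and -0.48 in experiment 1, and for Rab34, with 0.24 in experiment 2 and -0.19 in experiment 1. These differences were not tested.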

How the results depend on the processing

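Calls of ribosome density moved little: over lysates left out, 24 to 26 Rab genes were higher and 7 to 9 lower, and the lysate or experiment as a replicate block left 26 higher and 8 lower. With experiment 2 alone 4 were lower. Rab34, not called, reversed to 0.015 with DESeq2 size factors, 0.023 with the Wald test, 0.23 with experiment 2 alone, and lay between -0.098 and 0.053 over lysates left out, and Rab20 to 0.18 with experiment 2 alone; the cause was not tested. Over all genes, lysates left out gave 3594 to 3901 higher and 3978 to 4225 lower.

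Relative labelling gave 8 to 10 Rab genes higher and 7 to 9 lower (2206 to 2524 and 2162 to 2520 genes). For conversion, experiment 1 alone gave 30 genes higher, 1991 lower and 3 Rab genes lower, and lysates left out gave 7 to 13, 3442 to 5299 and 11 to 21. Relative to library medians, a pseudocount of 2 gave 573 genes higher and 307 lower with 1 and 1 Rab genes, conversions per T position 28 and 12, the experiment as a replicate block 117 and 41, experiment 1 alone 0 and 0, and lysates left out 3 to 55 and 2 to 31, with 0 Rab genes in each of these last.

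Time trends were the least stable. In input the Wald test called 88 genes rising. Both experiments with the experiment as a replicate block gave 382 rising and 1137 falling, with 1 and 2 Rab genes, and without the block 1 Rab gene fell. Lysates left out gave 0 to 165 rising and 0 to 795 falling. In footprints DESeq2 size factors gave 3 rising Rab genes, the Wald test 4 falling, no filter 388 rising genes with 0 rising and 4 falling Rab genes, and both experiments without a replicate block 719 rising genes and 5 falling Rab genes. Lysates left out gave 8 to 1911 rising and 115 to 2688 falling genes, and 0 to 9 Rab genes each way. The ratio trend called 4 and 9 genes by the Wald test, 0 and 0 without a block, and 0 to 1 and 0 to 4 over lysates left out. Rab3a, Rab4b and Rab23 rest on few input reads.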
